A study of Mus musculus with 6 samples.

Results

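Genes of the mitotic spindle and the kinetochore were compared between E18.5 fetal and adult basal mammary cells of the mouse. The 50 genes were given as a list of checkpoint, kinetochore, kinesin, condensin and cytokinesis genes, and their probes were found by matching the accession of each array probe to a RefSeq gene table. All 50 genes had a probe. They account for 63 of the 55681 probes of the array and for 50 of the 20660 genes that could be matched, and 39 of them were measured by 1 probe and 11 by several.

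The study asked how primitive mammary epithelial cells of the fetus differ from those of the adult, and profiled RNA from both populations on one-color Agilent arrays with 3 biological replicates each and 1 array per replicate. The fetal cells came from the mammary glands of female C57Bl6J embryos at E18.5, were dissociated by a short enzyme digestion and carried the sort phenotype CD31-CD45-Ter119-EpCAM++CD49f+. The adult basal cells came from the glands of 8–12-wk C57Bl6J females, were dissociated overnight and carried the sort phenotype CD31-CD45-Ter119-BP-1-EpCAM+CD49f+. No transgene or treatment was used, age, sort gate and digestion time cannot be told apart, and the labels and the methods do not name the same labelling kit. The labels do not say how many animals went into a replicate. Fetal replicate 1 and adult replicates 1 and 3 lay on 1 slide, and fetal replicates 2 and 3 and adult replicate 2 on the other.

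During mitosis, microtubules of the bipolar spindle attach to kinetochores, protein assemblies built on centromeric chromatin, and the spindle checkpoint delays anaphase until every kinetochore is attached. Condensins compact the chromosomes, motor proteins of the kinesin family move and organise microtubules, and a contractile ring then divides the cell. Most of these genes are transcribed in G2 and M phase and are low in cells that do not divide, so their RNA is widely used as a sign of proliferation. In RNA from a sorted population, fewer dividing cells and less of these RNAs in each cell cannot be told apart.

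The RNA of most of these genes was far higher in fetal than in adult basal cells. The main probe of a gene was the brightest of its probes that passed a filter on low signal, and values are quantile-normalized signals on the log2 scale. The median log2 fold change of the 50 genes, fetal over adult, was 5.08, a 33.8-fold difference, against −0.03 over the 20448 probes tested. It was 3.89 for the 50 genes with normexp background correction. The fitted fold changes ran from −0.30 for Tpx2 to 7.83 for Ska1, whose adult signals were not well above background. With limma and Holm's adjustment over all probes tested (adjusted p of at most 0.05 and at least 2-fold), 38 of the 50 genes were higher in fetal cells, where 5.92% of all probes were. The count was 22, 23 and 24 without fetal replicates 2, 1 and 3, and 24 without the filter on low signal. None was higher in adult basal cells by limma, where 5.18% of all probes were, and none was at an unadjusted p under 0.05 either. With Benjamini-Hochberg adjustment and the same fold, 45 genes were higher in fetal cells and 0 in adult basal cells, against 16% and 14.0% of all probes. The 3 fetal arrays lay above the 3 adult arrays for 47 genes and no gene had the opposite order, whereas 34.1% of all probes lay wholly higher in fetal cells and 35.0% wholly higher in adult basal cells. A log2 fold change of 4 or more was found for 34 of the 50 genes and for 1.88% of all probes.

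**Figure D1:**
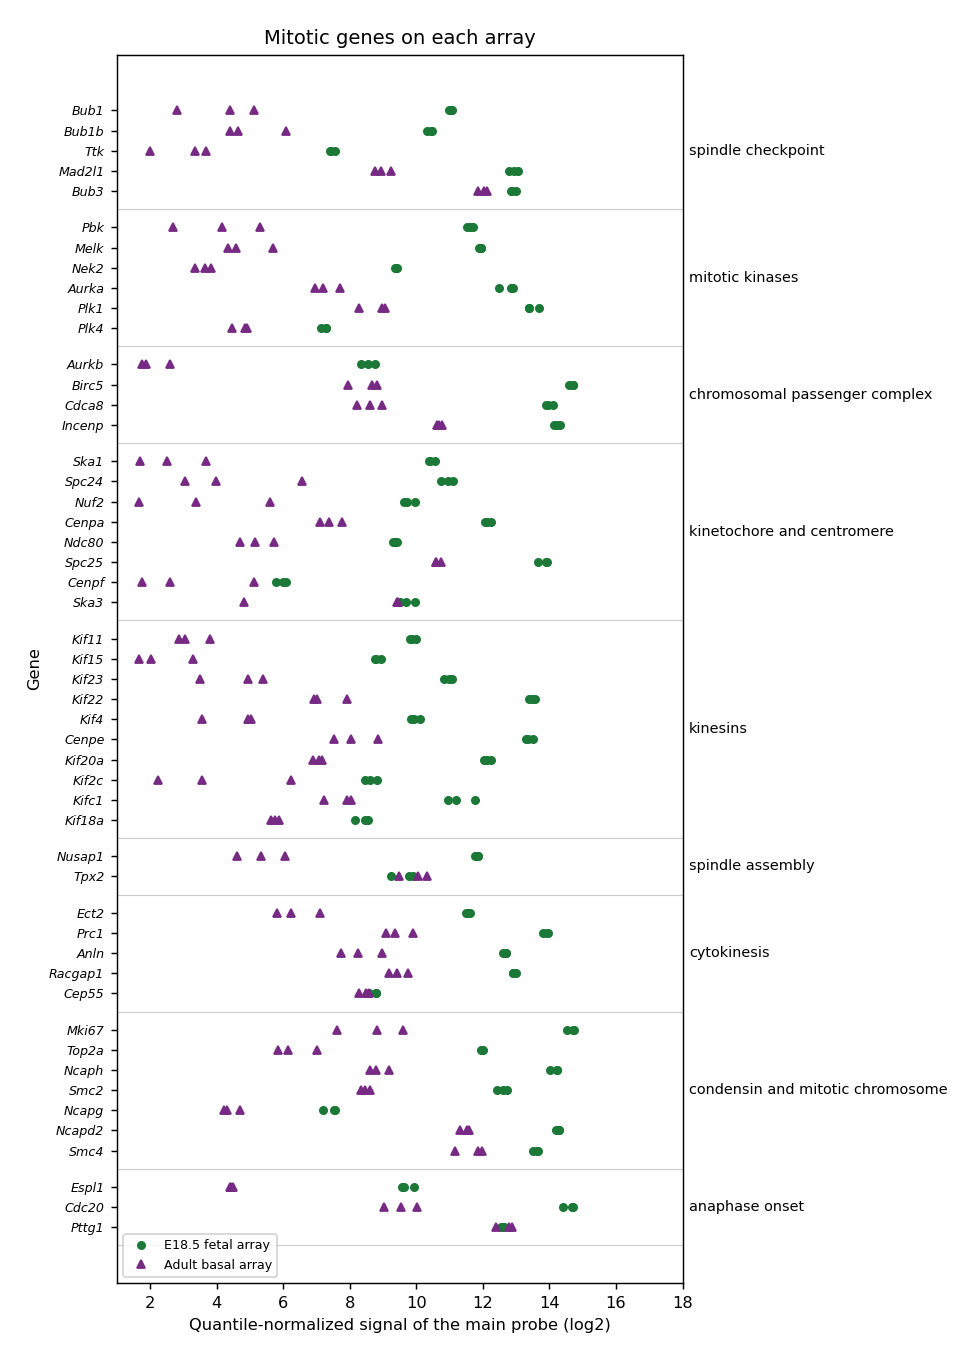
Quantile-normalized log2 signal (horizontal axis) of the main probe of each of the 50 genes, grouped by role, with 1 circle for each fetal array and 1 triangle for each adult basal array. The arrays of the populations did not overlap for 47 genes, and they overlapped for Tpx2, Cep55 and Pttg1.

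All 50 main probes were well above background on each fetal array. On the adult arrays 36 were well above background on replicate 1, 43 on replicate 2 and 38 on replicate 3, and 34 genes were well above it on all 6 arrays. For 6 genes no adult array was well above background, and their difference is given as a bound, computed against the lowest signal that was well above background on each adult array or the gene's own signal where that was higher. These bounds ran from at least 21.3-fold for Ttk to at least 156-fold for Ska1. Here and below, "at least" allows for background alone, not for replicate spread or processing, and smaller differences are not excluded. The limma intervals of Ttk and Ska1 began at log2 fold changes of 3.53 and 6.79, under their bounds of 4.41 and 7.29. That was also so for Nek2, Kif11 and Kif15, but not for Aurkb. With normexp correction the fitted value was 4.26 for Ska1 and 3.76 for Kif11 (bound, 6.58). With the 6 genes at their bounds, the median log2 fold change of the 50 genes was again 5.08. The bounds could not move it, as that of Ttk lay below 5.08 and the others above it, like the fitted values. Genes well above background on only some adult arrays kept their fitted values. Within the slide that held 1 fetal and 2 adult arrays the median was 5.11, and within the slide that held 2 fetal and 1 adult array it was 4.46.

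Promoters were examined because the genes moved together and because many genes of G2 and M phase are known to share a pair of short promoter elements, the CCAAT box, which binds the factor NF-Y, and the cell cycle genes homology region (CHR), which binds complexes that repress these genes in resting cells and activate them before division. RefSeq promoter sequences of GRCm38.p6 were at hand for 42 of the 50 genes, and the 250 bases before each listed start were searched on both strands. CCAAT was found for 27 genes (64.3%), against 37.5% of the 27025 genes with a promoter sequence. The CHR letters TTTGAA were found for 16 genes (38.1%), against 18.3% of all genes, and within 100 bases of the start for 12 genes (28.6%), against 6.76%. Both elements were found for 12 genes (28.6%), against 6.45% of all. The E2F letters TTTCGCGC or TTTGGCGC were found for 3 genes (7.14%), Kif15, Kif18a and Ncapd2, against 0.759% of all. These motifs share no letters with each other at a site in the sequences shown, genes with several starts had more bases searched, and a match is a description of the letters and not of a bound site. The 120 bases before the start of 6 genes that hold both elements are shown 5′ to 3′ on the gene's own strand, with CCAAT (or ATTGG, its reverse complement) and TTTGAA (or TTCAAA) in capitals. They were chosen, with the values known, as 5 genes with a large difference and Bub3, which had a small one: Cdc20 at chr4:118437344-118437463 (minus strand), Espl1 at chr15:102296173-102296292 (plus strand), Kif11 at chr19:37376262-37376381 (plus strand), Kif22 at chr7:127042421-127042540 (minus strand), Top2a at chr11:99024190-99024309 (minus strand) and Bub3 at chr7:131560250-131560369 (plus strand).
Cdc20: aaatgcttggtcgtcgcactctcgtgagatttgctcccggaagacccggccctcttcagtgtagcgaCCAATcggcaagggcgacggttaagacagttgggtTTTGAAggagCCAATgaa
Espl1: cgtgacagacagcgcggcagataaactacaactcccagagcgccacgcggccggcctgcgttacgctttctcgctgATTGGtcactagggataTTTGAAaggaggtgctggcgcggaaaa
Kif11: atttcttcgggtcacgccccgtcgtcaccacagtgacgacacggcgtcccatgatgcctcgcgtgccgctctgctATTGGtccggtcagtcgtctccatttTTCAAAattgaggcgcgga
Kif22: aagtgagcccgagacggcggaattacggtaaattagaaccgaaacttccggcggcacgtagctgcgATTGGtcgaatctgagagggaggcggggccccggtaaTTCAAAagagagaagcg
Top2a: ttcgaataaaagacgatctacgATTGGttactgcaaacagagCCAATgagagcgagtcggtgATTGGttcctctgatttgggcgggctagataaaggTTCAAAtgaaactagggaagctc
Bub3: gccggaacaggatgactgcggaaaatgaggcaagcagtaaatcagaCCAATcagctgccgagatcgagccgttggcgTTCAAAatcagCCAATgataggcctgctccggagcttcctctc

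In each of the 6 stretches a CHR match lies downstream of a CCAAT match. The stretch of Bub3 holds the same letters as the others. Its log2 fold change was 0.90, against 5.08 for Cdc20, 5.27 for Espl1, 6.20 for Kif22 and 5.64 for Top2a and a difference of at least 95.6-fold for Kif11. The promoters of Pttg1, which did not differ, and of Birc5, Aurka, Plk1 and Mad2l1, which did, hold no TTTGAA in the window searched.

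Of the 5 spindle checkpoint genes, 3 were higher in fetal cells with Holm's adjustment and 4 with Benjamini-Hochberg adjustment, with a median log2 fold change of 4.46. Bub1, a kinase that recruits the other checkpoint proteins to the kinetochore, gave log2 signals of 10.97, 11.05 and 11.06 on the fetal arrays and of 2.80, 5.12 and 4.39 on the adult arrays. All fetal arrays were therefore above all adult arrays, of which 2 were well above background, and the log2 fold change was 6.92 ± 0.52 (SE), with a Holm-adjusted p of 0.045. This call was lost in 11 of 18 alternative treatments of the data. Bub1b, which encodes the BubR1 subunit of the inhibitor of anaphase onset, differed by 5.37 ± 0.40 (SE, adjusted p = 0.047), a call lost in 10 of the 18. Mad2l1, which encodes Mad2 of the same inhibitor, differed by 3.94 ± 0.15 (SE, adjusted p = 0.0004). Ttk, the kinase Mps1 that starts checkpoint signalling, was at least 21.3-fold higher in fetal cells but missed Holm's threshold, with an adjusted p of 0.14. Bub3, the adaptor that carries Bub1 and BubR1, had the smallest difference of the 5. Its signals were 12.85, 12.86 and 13.00 in fetal cells and 12.12, 11.84 and 12.04 in adult basal cells. The groups did not overlap, but the log2 fold change of 0.90 (95% interval, 0.63 to 1.18) was under the 2-fold limit, and the Holm-adjusted p was 1.

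All 6 mitotic kinases were higher in fetal cells under both adjustments, with a median log2 fold change of 5.62. Pbk, a kinase of dividing cells, had signals of 11.51, 11.62 and 11.69 on the fetal arrays and of 2.68, 5.29 and 4.17 on the adult arrays, of which 1 was well above background. The log2 fold change was 7.56 ± 0.57 (SE), with an adjusted p of 0.049, and like that of Bub1 the call changed under 11 of 18 alternative settings. Melk, another kinase of proliferating cells, differed by 7.04 ± 0.32 (SE, adjusted p = 0.0014), and Nek2, which separates the centrosomes, was at least 54.1-fold higher in fetal cells (adjusted p = 1.7e-05). Aurka and Plk1, the centrosomal and spindle kinases needed for a bipolar spindle, differed by 5.46 and 4.71. Plk4, the kinase that starts centriole duplication, had the smallest difference of the 6. It gave 7.28, 7.12 and 7.29 in fetal cells and 4.84, 4.91 and 4.45 in adult basal cells. The groups were well separated, by a log2 fold change of 2.50 ± 0.14 (SE, adjusted p = 0.008).

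The 4 genes of the chromosomal passenger complex, which corrects wrong attachments and later marks the site of division, were all higher in fetal cells, with a median log2 fold change of 5.80. Aurkb, its catalytic kinase, gave 8.35, 8.56 and 8.76 in fetal cells and 1.88, 1.75 and 2.58 in adult basal cells. No adult array was well above background, and the kinase was at least 46.5-fold higher in fetal cells (adjusted p = 0.00027). Birc5, which encodes survivin, differed by 6.20 and Cdca8, which encodes borealin, by 5.40. Incenp, the scaffold that binds the other subunits, had the smallest difference. It gave 14.13, 14.32 and 14.24 in fetal cells and 10.61, 10.77 and 10.68 in adult basal cells. Every adult array was well above background, and the log2 fold change was 3.54 ± 0.10 (SE, adjusted p = 6.5e-05).

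Of the 8 kinetochore and centromere genes, all lay higher on every fetal than on every adult array, 4 passed Holm's adjustment and 7 passed Benjamini-Hochberg adjustment. On the adult arrays, Cenpf, Nuf2 and Spc24 were well above background on 1 array each and Ska1 on none. Ska1, a subunit of the complex that keeps kinetochores on shrinking microtubules, gave 10.38, 10.42 and 10.55 in fetal cells and 1.68, 3.67 and 2.51 in adult basal cells. None of the adult arrays was well above background, and the gene was at least 156-fold higher in fetal cells (adjusted p = 0.0067), the highest bound of the 50 genes. Cenpa, the histone H3 variant that marks the centromere, differed by 4.72 ± 0.17 (SE, adjusted p = 0.00031).

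The Ndc80 complex, which is the main microtubule receptor of the kinetochore, has 4 subunits, which differed in their spread over the adult arrays. Spc25 gave 13.66, 13.92 and 13.90 in fetal cells and 10.60, 10.60 and 10.74 in adult basal cells, and Ndc80 gave 9.36, 9.29 and 9.42 against 4.71, 5.71 and 5.14. Both were called, with log2 fold changes of 3.18 and 4.17. Spc24 gave 10.73, 10.94 and 11.10 in fetal cells but 3.05, 6.57 and 3.97 in adult basal cells, and Nuf2 gave 9.62, 9.72 and 9.97 against 1.66, 5.61 and 3.38. For both, only adult replicate 2 was well above background. Their log2 fold changes of 6.39 ± 0.79 and 6.22 ± 0.86 (SE) both had a Holm-adjusted p of 1, and Benjamini-Hochberg-adjusted p of 0.00031 and 0.00053. Cenpf, a protein of the outer kinetochore, followed the same adult pattern at 1.74, 5.13 and 2.60, with a log2 fold change of 2.80 and a Holm-adjusted p of 1.

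Ska3, the partner of Ska1, had a pattern of its own among the 50 genes. It gave 9.50, 9.70 and 9.97 in fetal cells and 9.42, 4.83 and 9.44 in adult basal cells. Adult replicates 1 and 3 thus lay just under the fetal arrays and replicate 2 lay 4.61 below their mean, the lowest such value among the 19775 tested probes well above background on all 6 arrays. The log2 fold change of 1.82 (95% interval, −0.89 to 4.54) rested on that array, and it was 0.29 with adult replicate 2 left out. The spot was not marked as an outlier by the scanner software.

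**Figure D2:**
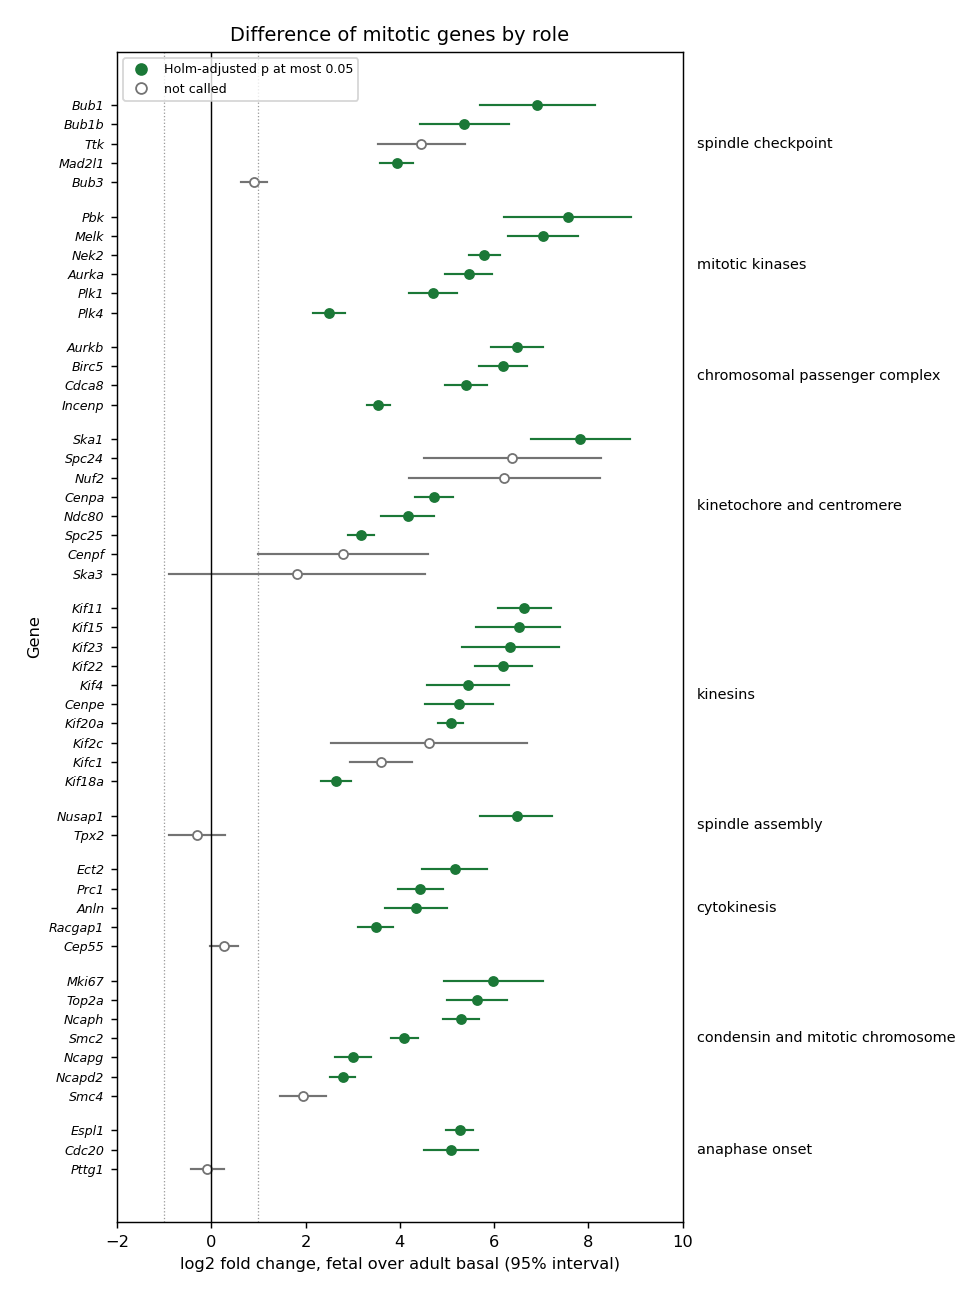
Log2 fold change of each gene, fetal over adult basal (horizontal axis), with its 95% interval from limma, grouped by role, where filled green points passed Holm's adjustment and the 2-fold limit and open grey points did not. The 38 called genes all lie to the right of 0, and the widest intervals are those of Ska3, Kif2c, Nuf2, Spc24 and Cenpf.

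All 10 mitotic kinesins lay higher on every fetal than on every adult array, 8 passed Holm's adjustment and 10 passed Benjamini-Hochberg adjustment, with a median log2 fold change of 5.36. Kif11, the motor Eg5 that pushes the spindle poles apart, gave 9.86, 9.80 and 9.99 in fetal cells and 2.86, 3.04 and 3.81 in adult basal cells. No adult array was well above background, and the difference was at least 95.6-fold (adjusted p = 0.00029). Kif15, which backs up Kif11, was at least 55.8-fold higher (adjusted p = 0.0084). Of the motors of the central spindle, Kif23 differed by 6.35, Kif20a by 5.08 and the chromosome-bound Kif4 by 5.45. Of these, Kif23 and Kif4 each lost their call in 9 of the 18 alternatives. Kif22, which moves chromosome arms, differed by 6.20, and Cenpe, which brings chromosomes to the spindle equator, by 5.26. Kif18a, which dampens chromosome movements, had the smallest difference of the 10. Its signals were 8.15, 8.45 and 8.56 in fetal cells and 5.74, 5.86 and 5.64 in adult basal cells, a separation of 2.64 ± 0.14 (SE, adjusted p = 0.0034). The genes that missed Holm's threshold were Kifc1, a minus-end motor that clusters spindle poles (3.60, adjusted p = 0.054), and Kif2c, which takes microtubules apart at the centromere. The main probe of Kif2c gave 2.24, 6.24 and 3.55 on the adult arrays, again highest on replicate 2. Its other probe gave 1.71, 3.15 and 3.74, highest on replicate 3.

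Of the spindle assembly genes, Nusap1, which bundles spindle microtubules near chromatin, gave 11.85, 11.85 and 11.75 in fetal cells and 4.61, 6.06 and 5.34 in adult basal cells. All of these were well above background, and the log2 fold change was 6.48 ± 0.33 (SE, adjusted p = 0.003). For Tpx2, which activates Aurora A and starts microtubule growth around chromosomes, the main probe gave 9.77, 9.25 and 9.91 in fetal cells and 10.31, 9.49 and 10.04 in adult basal cells. These overlapped, with a log2 fold change of −0.30 (95% interval, −0.89 to 0.29). The other Tpx2 probe, designed on another transcript accession of the gene, gave 11.85, 11.79 and 12.03 against 7.02, 8.01 and 7.49. On that probe the difference was 4.38 ± 0.24 (SE, adjusted p = 0.0049).

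Of the 5 cytokinesis genes, 4 were higher in fetal cells under both adjustments, with a median log2 fold change over the 5 of 4.35. Ect2, the exchange factor that activates RhoA at the division site, gave 11.56, 11.61 and 11.48 in fetal cells and 5.82, 7.09 and 6.23 in adult basal cells. The separation was 5.17 ± 0.29 (SE, adjusted p = 0.0071). Prc1, which crosslinks the microtubules of the central spindle, differed by 4.44, Anln, a scaffold of the contractile ring, by 4.35, and Racgap1, which forms the centralspindlin complex with Kif23, by 3.49 ± 0.16 (SE, adjusted p = 0.0013). The main probe of Cep55, which recruits the machinery for the final cut, gave 8.80, 8.57 and 8.78 in fetal cells and 8.58, 8.28 and 8.50 in adult basal cells. These overlapped, with a log2 fold change of 0.27 (95% interval, −0.03 to 0.56). The dimmer Cep55 probe, which carries the same accession, gave 7.28, 7.21 and 7.33 against 2.03, 2.50 and 1.61, and was at least 19.1-fold higher in fetal cells (adjusted p = 0.00068).

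The condensin and mitotic chromosome genes numbered 7, of which 6 passed Holm's adjustment and 7 Benjamini-Hochberg adjustment, with a median log2 fold change of 4.10. Mki67, which encodes the Ki-67 antigen that coats mitotic chromosomes, gave 14.74, 14.71 and 14.53 in fetal cells and 7.60, 9.60 and 8.83 in adult basal cells. The difference was 5.98 ± 0.45 (SE, adjusted p = 0.044), and it was 6.14 ± 0.42 (SE) on the other probe. The call of Mki67 was lost in 10 of the 18 alternatives. Top2a, the topoisomerase that disentangles sister chromatids, differed by 5.64 ± 0.27 (SE, adjusted p = 0.0023). Within condensin I, the regulatory subunits differed by 5.31 for Ncaph, 3.01 for Ncapg and 2.79 for Ncapd2, and the ATPase subunit Smc2 by 4.10. Smc4, the other ATPase subunit, had the smallest difference. It gave 13.64, 13.67 and 13.51 in fetal cells and 11.17, 11.96 and 11.86 in adult basal cells. The groups did not overlap, but the log2 fold change of 1.94 ± 0.21 (SE) had a Holm-adjusted p of 0.46.

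Among the genes of anaphase onset, Espl1, which encodes the protease separase that cuts cohesin, gave 9.63, 9.58 and 9.92 in fetal cells and 4.49, 4.39 and 4.44 in adult basal cells. With an SD of 0.05 between adult arrays, its log2 fold change of 5.27 ± 0.12 (SE) had an adjusted p of 1.1e-05, shared with Kif20a as the lowest of the 50 genes. Cdc20, the activator of the anaphase-promoting complex that the checkpoint holds back, differed by 5.08 ± 0.24 (SE, adjusted p = 0.0021). Pttg1, which encodes securin, the inhibitor of separase, gave 12.53, 12.61 and 12.63 in fetal cells and 12.77, 12.38 and 12.88 in adult basal cells. These overlapped, with a log2 fold change of −0.09 (95% interval, −0.43 to 0.26). The other, dimmer Pttg1 probe gave −0.32 with a Holm-adjusted p of 1, and on it every adult array lay above every fetal array.

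Counting a gene when any of its probes passed, 40 of the 50 genes were higher in fetal cells with Holm's adjustment and 47 with Benjamini-Hochberg adjustment. Of the 62 probes of these genes that were tested, 46 were higher in fetal cells with Holm's adjustment. Of all probes tested, 5.92% were so with Holm's adjustment and 16% with Benjamini-Hochberg adjustment, and a share of all genes by any probe was not computed. Where several probes measured a gene, Incenp, Cdca8, Racgap1 and Mki67 gave nearly equal differences, whereas Tpx2 and Cep55 did not. Birc5 gave 6.20, 6.38 and 3.52 on its probes. Mad2l1 gave 3.94 on the main probe, 2.56 on another (adjusted p = 0.066) and 0.57 on the remaining one, which had 8.96, 9.03 and 8.93 in fetal cells and 8.56, 8.24 and 8.43 in adult basal cells. On the other Kif2c probe, no adult array was well above background and the difference was at least 57.8-fold (adjusted p = 0.055).

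**Figure D3:**
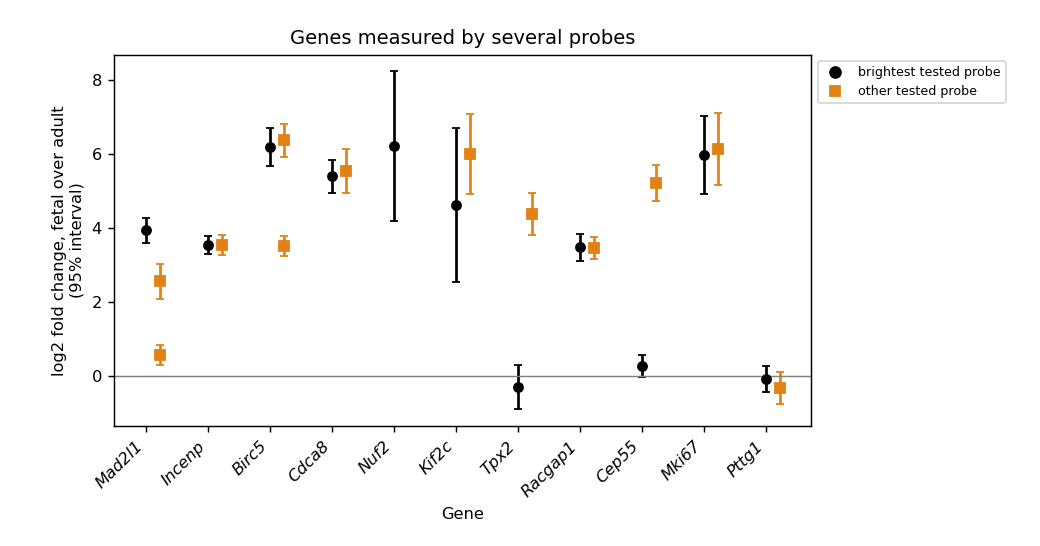
Log2 fold change, fetal over adult basal, with its 95% interval, for each tested probe of the 11 genes that had several probes on the array, where black circles are the brightest tested probe and orange squares the others. The probes of Tpx2 and Cep55 lie 4 or more log2 units apart, those of Incenp and Racgap1 coincide, and both Pttg1 probes lie near 0.

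The replicate spread of these genes was wider in adult basal than in fetal cells. The median SD over 3 arrays was 0.45 in adult basal and 0.10 in fetal cells on the log2 scale, against 0.18 and 0.12 over all probes tested. The adult SD exceeded the fetal SD for 45 of the 50 genes (90.0%), against 68.8% of all probes, and it was 1 or more for 9 genes, against 2.04% of all probes. Of the 9, only Ska3 and Mki67 were well above background on every adult array. For the 34 genes well above background on every array the median adult SD was 0.40, against 0.17 for all such probes and 0.18 for those whose adult level lay between 7.11 and 9.45, the quartiles of the 34 genes.

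The adult arrays differed from each other in 1 direction for most of the genes. On the main probes adult replicate 2 was the highest for 36 of the 50 genes, against 33.2% of all probes, and adult replicate 1 the lowest for 35, against 29.4% of all probes. Of the other tested probes, those of Incenp, Tpx2, Racgap1, Cep55 and Mki67 were also highest on replicate 2. Those of Mad2l1, Birc5, Cdca8, Kif2c and Pttg1 were not, and that of Cdca8 gave 5.69, 4.83 and 5.80. By main probe, replicate 2 lay above replicate 1 for 42 genes (84.0%), with a median difference of 0.77, whereas it did so for 46.2% of all probes, with a median difference of −0.03. Averaged over the 50 genes, the adult log2 signals were 6.34, 7.20 and 6.84 for replicates 1, 2 and 3, and the fetal signals 11.29, 11.36 and 11.45. The averages did not have the same order in each role. For the mitotic kinases they were 5.07, 6.08 and 5.50 and for the kinesins 4.86, 6.07 and 5.46, with replicate 2 highest. The checkpoint genes gave 6.10, 6.78 and 6.99 and the passenger complex 7.16, 7.54 and 7.67. These small roles include Ttk (1.99, 3.33 and 3.68) and Aurkb (1.88, 1.75 and 2.58), well above background on no adult array. Within them Bub1, Mad2l1, Cdca8 and Incenp were highest on replicate 2, Bub1b and Birc5 on replicate 3 and Bub3 on replicate 1. A difference in order between roles was not tested. With arrays scaled to their 75th percentile, replicate 2 was highest for 39 genes, and in the values normalized by the authors for 36. Adult replicate 2 was also the only adult array on its slide, so the array and the slide cannot be told apart. It had 326 outlier spots, against 104 and 153 on adult replicates 1 and 3, and their part in this order was not tested.

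**Figure D4:**
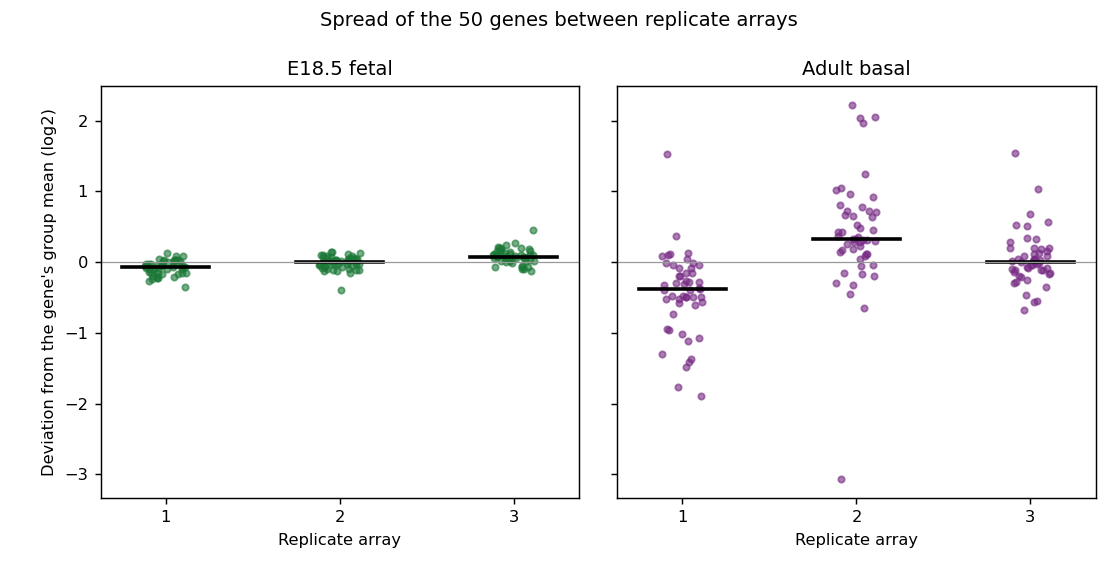
Deviation of each of the 50 genes from its own group mean (log2, vertical axis) on each replicate array, for fetal cells (left) and adult basal cells (right), with 1 point per gene and the median as a black bar. The adult medians are −0.38, 0.33 and 0.00 for replicates 1, 2 and 3, the fetal medians −0.07, 0.01 and 0.08, and the single low point of adult replicate 2 is Ska3.

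Markers of the sorted cells and of other cells were read beside these results. With Holm's adjustment 5.92% of all probes tested were higher in fetal cells and 5.18% in adult basal cells. Of 6 basal markers, 4 were higher in adult basal cells with Holm's adjustment, the smooth muscle genes Myh11 (−8.63) and Acta2 (−4.07), the oxytocin receptor gene Oxtr (−3.96) and, named after its value was seen, the basal keratin gene Krt5 (−3.90), and all 6 were well above background in both populations. The probes of Trp63, the transcription factor gene of basal cells, disagreed, at −0.08 on the brightest and −3.06 on the other (Holm-adjusted p = 0.00019), so 5 of the 6 were higher in adult basal cells with any probe counted. Of 7 luminal markers, 2 were higher in fetal cells, the transcription factor gene Elf5 (7.55) and the receptor gene Kit (4.0). The oestrogen receptor gene Esr1 (−3.58) and the keratin gene Krt19 (−1.22) were higher in adult basal cells with Benjamini-Hochberg adjustment only. The probes of the prolactin receptor gene Prlr disagreed, at −0.35 on the brightest, where the groups did not overlap, and 1.85 on the other (Holm-adjusted p = 0.026), so 3 of the 7 were higher in fetal cells with any probe counted. The median over the luminal list was 0.44. The summed linear signal of a list adds up probes that differ in brightness and is no measure of RNA abundance. That of the luminal list was 175100, 176600 and 137900 in fetal cells and 117300, 109000 and 110100 in adult basal cells, with Krt18 giving the largest part on every array. Of 7 fibroblast markers, 2 were higher in adult basal cells, Dcn (−3.78) and Pdgfrb (−4.34), and Lum (−1.05) was so with Benjamini-Hochberg adjustment only. Their summed signal was 5467, 5732 and 7060 in fetal cells and 16060, 18550 and 26660 in adult basal cells, with Col1a2 giving the largest part on the fetal arrays and Dcn on the adult arrays. Of the 5 leukocyte and 4 endothelial markers tested, Lyz2 (−1.76), Cdh5 (−2.70) and Emcn (−1.79) were higher in adult basal cells with Benjamini-Hochberg adjustment only. The leukocyte sum was 23720, 20960 and 17310 in fetal cells and 16020, 23790 and 16320 in adult basal cells, with Itgam giving the largest part on every array. Of the 5 erythroid markers, Hbb-bt was at least 27.8-fold higher in fetal cells, at 6.33, 9.28 and 9.29, with a Holm-adjusted p of 1 and a call with Benjamini-Hochberg adjustment only (adjusted p = 0.00096), and Gata1 exceeded background on none of the 6 arrays. The erythroid sum was 624.5, 1733 and 1499 in fetal cells and 468.9, 1019 and 484.0 in adult basal cells. Among the adult arrays, replicate 2 had the highest erythroid and leukocyte sums and, by a small margin, the lowest luminal sum. Mean log2 levels of the lists ordered the adult arrays otherwise for the erythroid and leukocyte markers. They were 4.06, 4.51 and 4.89 for the erythroid and 9.53, 9.65 and 9.82 for the leukocyte list, highest on replicate 3. For the luminal list they were 10.47, 10.28 and 10.55, lowest on replicate 2. Of 3 epidermal markers tested, Krt10 was higher in fetal cells (1.47) and Krt1 (1.95) was so with Benjamini-Hochberg adjustment only, and all 3 lay higher on every fetal than on every adult array. The part of these cells in the difference of the mitotic genes was not tested.

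Genes around the 50 were then read from lists of their partners. Of all probes tested, 5.92% were higher in fetal cells with Holm's adjustment and 16% with Benjamini-Hochberg adjustment. Of 9 genes of mitotic entry, 7 were higher in fetal cells with Holm's adjustment and 9 with Benjamini-Hochberg adjustment, with a median log2 fold change of 4.83. Cdk1, the kinase that drives entry, gave 12.88, 13.03 and 13.02 in fetal cells and 5.43, 7.05 and 6.15 in adult basal cells, and its cyclin partners Ccnb1 and Ccnb2 differed by 5.82 and 5.50. The other Cdk1 probes gave log2 fold changes of 6.17 (Holm-adjusted p = 0.00085) and 0.96, and the latter was not called. Of 26 other kinetochore genes, 17 were higher in fetal cells, with a median of 3.76. Among them were the genes of the centromere proteins Cenph (6.05) and Cenpm (at least 53.1-fold). Of 10 other checkpoint genes, 6 were higher in fetal cells, led by the kinetochore-bound checkpoint genes Kntc1 (5.59) and Zwilch (5.51) and by Sgo1 (4.63), which protects centromeric cohesin. Of 22 other spindle genes tested, 13 were higher, among them Fam83d (at least 41.6-fold), Aspm (5.42) and Kif18b (at least 41.7-fold).

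Lists whose brightest probes had medians nearer 0 were those of cohesin, of the anaphase-promoting complex and of transcription factors. Over all probes tested, 5.92% were higher in fetal cells with Holm's adjustment. Of 16 genes of condensin II and cohesin, 4 were higher in fetal cells, with a median of 0.53. These were the cohesion factors Esco2 (at least 36.5-fold) and Cdca5 (5.93) and the condensin II subunits Ncapg2 (3.30) and Ncapd3 (2.31). The cohesin ring gene Rad21, which like Ncapd3 was named after its value was seen, gave 0.35. Of 15 genes tested of the anaphase-promoting complex and its regulators, 2 were higher, the ubiquitin-conjugating enzyme Ube2c (4.16) and the inhibitor Fbxo5 (2.89), with a median of 0.64. Of 10 genes that control G2 and M transcription, 2 were higher on their brightest probe, the pocket protein gene Rbl1 (3.00) and the MuvB subunit Lin9 (1.41), with a median of 0.11. Foxm1, the activator of many G2 and M genes, also named after its value was seen, gave 9.54, 9.56 and 9.17 in fetal cells and 8.91, 10.12 and 9.06 in adult basal cells on its brightest probe, where the groups overlapped. The other Foxm1 probe gave 10.45, 10.43 and 10.59 in fetal cells and 7.52, 7.71 and 7.65 in adult basal cells, a log2 fold change of 2.86 ± 0.11 (SE, Holm-adjusted p = 0.00033), so the 2 probes of this gene disagreed. Mybl2, a transcription factor that joins the MuvB complex, was likewise named after its value was seen, and differed by 1.16 on its brightest probe (Holm-adjusted p = 0.25) and by 2.76 on the other (Holm-adjusted p = 0.00034). With any probe of a gene counted, 4 of these 10 genes were higher in fetal cells, as were 4 of the condensin II and cohesin genes and 2 of the anaphase-promoting complex genes.

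Kinesins outside mitosis, most of which carry cargo or serve cilia, were read as a contrast within the motor family. Of 23 such genes 21 were tested, of which 1 was higher in fetal cells and 2 in adult basal cells with Holm's adjustment, and 4 and 5 with Benjamini-Hochberg adjustment. Of all probes tested, 5.92% were higher in fetal cells and 5.18% in adult basal cells with Holm's adjustment. The shares with Benjamini-Hochberg adjustment were 16% and 14.0%. The median log2 fold change of these kinesins was −0.17, against 5.36 for the 10 mitotic kinesins. Their median SD between adult arrays was 0.21. Kif5c, a heavy chain of conventional kinesin, gave 5.58, 5.34 and 5.58 in fetal cells and 10.18, 10.35 and 10.61 in adult basal cells. It was the kinesin with the largest difference toward adult cells, at −4.88 ± 0.14 (SE, adjusted p = 6.4e-05), followed by the vesicle motor Kif1a at −2.70. Kif26b was higher in fetal cells by 3.70. The probes of Kif1b disagreed, at −0.62 on the brightest and 1.37 on the other (Holm-adjusted p = 0.027). With any probe counted, 2 of these kinesins were higher in fetal cells and 2 in adult basal cells. A difference between the motor groups themselves was not tested.

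**Figure D5:**
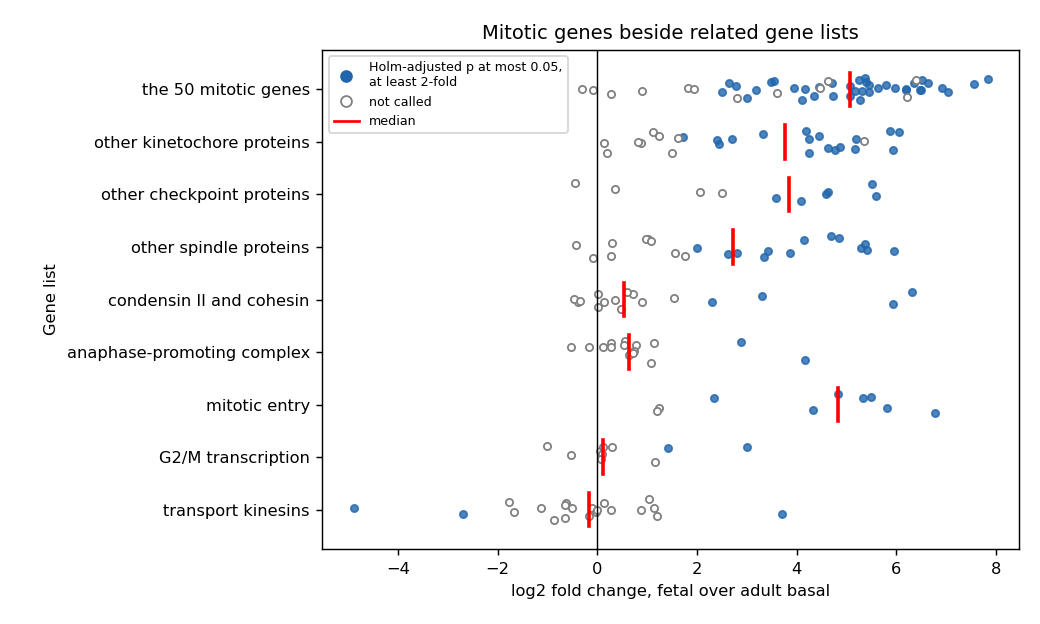
Log2 fold change, fetal over adult basal (horizontal axis), of each tested gene of the 50 and of the lists of related genes, 1 point per gene at its main probe, with genes called with Holm's adjustment filled in blue and the median of each list as a red bar. The medians are 5.08 for the 50 genes and 4.83 for mitotic entry, and −0.17 for transport kinesins.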

How the data were processed

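One-color Agilent arrays of 3 fetal (E18.5) and 3 adult basal samples were grouped by the sample labels. The authors deposited spot intensity from Agilent Feature Extraction 11.0.1.1, background-subtracted within each array and not normalized between arrays, and a table of log2 values that the authors quantile normalized, which served as an alternative. Each of its columns matched the array it is labelled with (correlation of deviations from probe means, 0.998 to 0.999; best other array, 0.729).

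Control spots and between 104 and 326 outlier spots per array were left out, log2 processed signals of a probe were averaged and the arrays quantile normalized. No spot was saturated, and the share of probes well above background ran from 76.4% to 83.3%. Of 55681 probes, 27235 matched genes by accession in a RefSeq table of GRCm38.p6. Probes below 5.95 in both populations, the boundary of the lowest of 3 k-means clusters, were removed, which left 20448. The populations were compared with limma 3.58.1 (lmFit and eBayes, R 4.3.3), with p-values adjusted over all of these, and the fit was tested on simulated data. The number of arrays, 3 per group, limits the precision. Tables and plots were made in Python 3.11.15 with pandas 2.3.3 and matplotlib 3.10.9.

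The 50 genes and all lists were chosen with earlier results of these data known. Arrays are given for the genes with the largest and the smallest difference in each role, and for others chosen after their values were seen. Up to 3 called genes per direction with the largest fitted fold change are named from each further list, beside others said to be chosen after their values were seen. One gene that this rule would name is not reported here. Bounds use means of log2 values and allow for background alone, not for replicate spread or processing. Alternatives were 75th percentile scaling, the deposited log2 values, normexp background correction, an offset of 16 before log2, no filter or a filter on probes well above background, unmatched probes included, Benjamini-Hochberg adjustment, trend and robust eBayes, the mean of a gene's probes, each array left out, and replicate number or slide as a block.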

Additional observations from a re-analysis of the deposited data

How the results depend on the processing

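Of the 18 alternatives, none gave a member of the 50 genes higher in adult basal cells. The number higher in fetal cells was 38 and lay between 32 and 45 under all but 1 of the alternatives that kept every array. It fell to 24 without the low-signal filter, a fall whose cause was not tested, and it was 22 to 40 with an array left out (22, 23 and 24 without fetal replicates 2, 1 and 3, and 40 without adult replicate 2). The median log2 fold change of 5.08 was 3.89 with normexp correction and 4.60 with the offset, which both raise low signals by construction, and 4.86 to 5.19 with an array left out. The total of 2270 probes called was 1182 without the filter, 6133 with Benjamini-Hochberg adjustment, 1302 with a replicate block and 952 to 2014 with an array left out. The median adult SD of 0.45 was 0.46 in both other scalings. Tpx2 turned to 2.04 with the mean of its probes (adjusted p = 0.015). Cep55 changed its call in 1 of the 18 alternatives, over which its log2 fold change ran from 0.18 to 2.75. Pttg1 turned to 0.01 with normexp correction and lay between −0.23 (without adult replicate 2) and 0.02 (without adult replicate 3) with an array left out, always with an adjusted p of 1, and the cause was not tested. Of the 38 called genes, 21 kept their call in all 18 alternatives, whereas Bub1 and Pbk lost it in 11, Bub1b and Mki67 in 10 and Kif23 and Kif4 in 9. Deviations of same-numbered samples correlated at −0.03, 0.09 and 0.05, and those of differently numbered samples between −0.13 and 0.12. Correlations over all probes tested cannot show whether the replicate numbers pair the samples. With the replicate block 34 of the 50 genes were called, and 32 with slide as a block. Signal over background limited 6 of the 50 genes to bounds.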

Other observations

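The HAUS (augmin) complex, which branches new microtubules off those of the spindle, was measured for 8 subunit genes. With Holm's adjustment 5 of them were higher in fetal cells, where 5.92% of all probes were. Haus4 (3.86), Haus8 (3.34), Haus1 (2.81), Haus5 (2.62) and Haus6 (2.01) were called, whereas Haus7 (1.07), Haus2 (0.98) and Haus3 (0.28) were not. Haus3 gave 11.18, 11.17 and 11.29 in fetal cells and 10.77, 10.99 and 11.06 in adult basal cells, so that the arrays did not overlap although the difference was small. The complex was singled out after its values had been seen.

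Some probes outside the 50 genes were low on adult replicate 2 alone, as Ska3 was. Mis12, a kinetochore gene, gave 8.37, 6.68 and 8.74 on adult replicates 1, 2 and 3, the cohesin gene Smc3 gave 12.30, 11.23 and 12.61, and the basal keratin gene Krt14 gave 15.25, 13.39 and 15.46. These were picked after their values had been seen.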
